A study of Mus musculus with 27 samples.

Results

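The autophagy machinery genes are 44 mouse genes chosen by name, covering the complexes that start an autophagosome, the enzymes that lipidate ATG8 proteins, the ATG8 proteins themselves, membrane and lipid carriers, cargo receptors and 2 transcription factors. A member was analysed through its brightest probeset with a single gene symbol and a mean log2 value of at least 6 over 27 arrays. That held for 43 of the 44 members, among 13989 genes tested. Optn was not analysed here.

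Autophagy encloses pieces of cytoplasm in a new membrane and delivers them to the lysosome. The ULK kinase complex receives signals on nutrients and energy, and the class III PI3-kinase complex then marks the forming membrane with the lipid PI3P. ATG9 and ATG2 proteins bring lipid to it, a ubiquitin-like conjugation pathway attaches ATG8 proteins to phosphatidylethanolamine, and receptors tether cargo to those ATG8 proteins. Embryonic stem (ES) cells use the pathway to turn over mitochondria and protein.

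The series profiled undifferentiated mouse ES cells on Affymetrix arrays after RNA interference against chromatin proteins. MOF, encoded by Kat8, is a histone acetyltransferase found in the MSL and NSL complexes, and MSL1 is a scaffold of the first. The label NSL1 could mean Kansl1, of the NSL complex, or Nsl1, a kinetochore gene. The tested arrays of PGK12.1, whose female cells came from crossing 129 with (129 X PGK)F1 males, were 3 with MOF siRNA (experiments 1, 2 and 3), 3 with MSL1 siRNA (A, B, C), 3 labelled NSL1 (C, D, E) and 2 with MOF and MSL1 siRNA together (D, E). Their references were 3 arrays with negative control siRNA for experiments 1, 2 and 3 and 5 for experiments A to E. Experiment C thus had 1 control array for MSL1 and NSL1, and experiments D and E had 1 each for NSL1 and the combined knockdown. Male lines were WD44, from BL6 blastocysts, and E14, labelled a hybrid of a BL6 mother and a Cast. father, each with 2 MOF siRNA arrays and 2 control arrays (experiments 1 and 2). All cells received 100 pmol of siRNA for 48 h, with 50 pmol of Msl1 siRNA added in the combined knockdown. Only in PGK12.1 experiments 1 and 2 was siRNA given again, at 400 pmol for another 24 h, to MOF and control cells. Cells of every group were kept with leukemia inhibitory factor on mouse embryonic fibroblast feeders, which were depleted on gelatin before transfection. The knockdowns were transient, and the labels describe separate RNAi treatments. For each probeset, p-values of the main fit rest on a spread between these treatments that is shared by all arrays and lines. They do not measure the spread within a single line.

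The siRNA targets, where the labels settle them, were lower in their own arrays. With MOF siRNA the log2 level of Kat8 fell by 1.22 (PGK12.1), 0.84 (WD44) and 0.68 (E14), and by 0.87 in the combined knockdown, while Msl1 fell by 0.97 with MSL1 siRNA and by 0.46 in the combined knockdown. In the arrays labelled NSL1, Nsl1 itself had a change of 0.16 (adjusted p = 0.0502), and the 2 Kansl1 probesets disagreed, with changes of -0.24 and 0.50. Array medians lay between 6.22 and 7.96 and differed between 6 sets of experiments, so changes were estimated only within an experiment. Statements on whether groups overlapped set levels of different experiments side by side. In the MOF and NSL1 comparisons of PGK12.1 those experiments came from more than 1 set. The mean of 10 ES cell markers lay 4.26 to 5.64 above the array median. The mean of 10 fibroblast markers lay between 0.68 below and 0.22 below it, and Dcn, Lum, Postn and S100a4 were under the filter. In bulk RNA, fewer cells of a type and less RNA per cell cannot be told apart.

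In the arrays labelled NSL1, Atg4a, Atg7, Calcoco1, Atg9a and Pik3c3 fell to between 41.9% and 68.1% of control. Uvrag and Atg2b rose to 129% and 124% there, though a second Atg2b probeset stood at 104% of control and was not called. MOF knockdown lowered Atg4a to 52.0% of control in PGK12.1 and to 68.5% in E14, and raised Wdr45 in all 3 lines, to between 123% and 126% of control. MSL1 knockdown changed no member past the threshold. The median absolute change over the 43 members was 0.15 in E14, beside 0.09 for all genes, and 0.13 in the NSL1 arrays, beside 0.13 for all genes. It was 0.11 with MOF siRNA in PGK12.1 (0.10 for all genes) and 0.115 in WD44 (0.11 for all genes). In the combined knockdown it was 0.0777 (0.0828 for all genes), and with MSL1 siRNA 0.0527 (0.0495 for all genes). A change was called at an adjusted p under 0.05 in limma, with the experiment as a block and Benjamini-Hochberg adjustment over 16283 probesets.

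In the NSL1 arrays 6 members were higher, against 18.8% of all genes tested, and 12 were lower, against 22.4%, which makes 14% and 27.9% of the 43. With MOF siRNA in PGK12.1, 5 were higher (9.84% of all genes) and 8 lower (14.6% of all genes), or 11.6% and 18.6% of the members. The combined knockdown had 3 higher and 3 lower, with backgrounds of 3.51% and 3.42%, or 6.98% of the members each way. MOF siRNA called 1 higher and 4 lower in WD44, with backgrounds of 4.45% and 8.28%, and 4 higher and 4 lower in E14, with backgrounds of 3.77% and 4.93%. Those are 2.33% and 9.3% of the members in WD44 and 9.3% each way in E14. These counts are no test of the members against other genes. With MSL1 siRNA 0 members were called in limma, with backgrounds of 0.114% higher and 0.1% lower. At an unadjusted limma p under 0.05 that comparison held 2 of the 43 members, beside 1442 of 13989 genes tested. The fit without the block called 0 members there, with backgrounds of 0.0429% higher and 0.0286% lower.

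Across the 6 comparisons 29 of the 43 members were called at least once, 13 of them only higher and 16 only lower, and none in both directions. That is 67.4% of the members, against 57.2% of all genes tested, of which 2.78% were called in both directions. Of the 29, 16 were called in 1 comparison, 8 in 2, Atg4c and Calcoco1 in 3, and Atg4a, Fundc1 and Wdr45 in 4. The last 3 are annotated to the X chromosome, as is Tfe3, and Wdr45 was called higher where the other 2 were called lower. The share of X-linked genes among all genes called was not counted, and a link with the X chromosome was not tested. For Atg4a, the locus that its brighter probeset reads was not tested either.

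**Figure D1:**
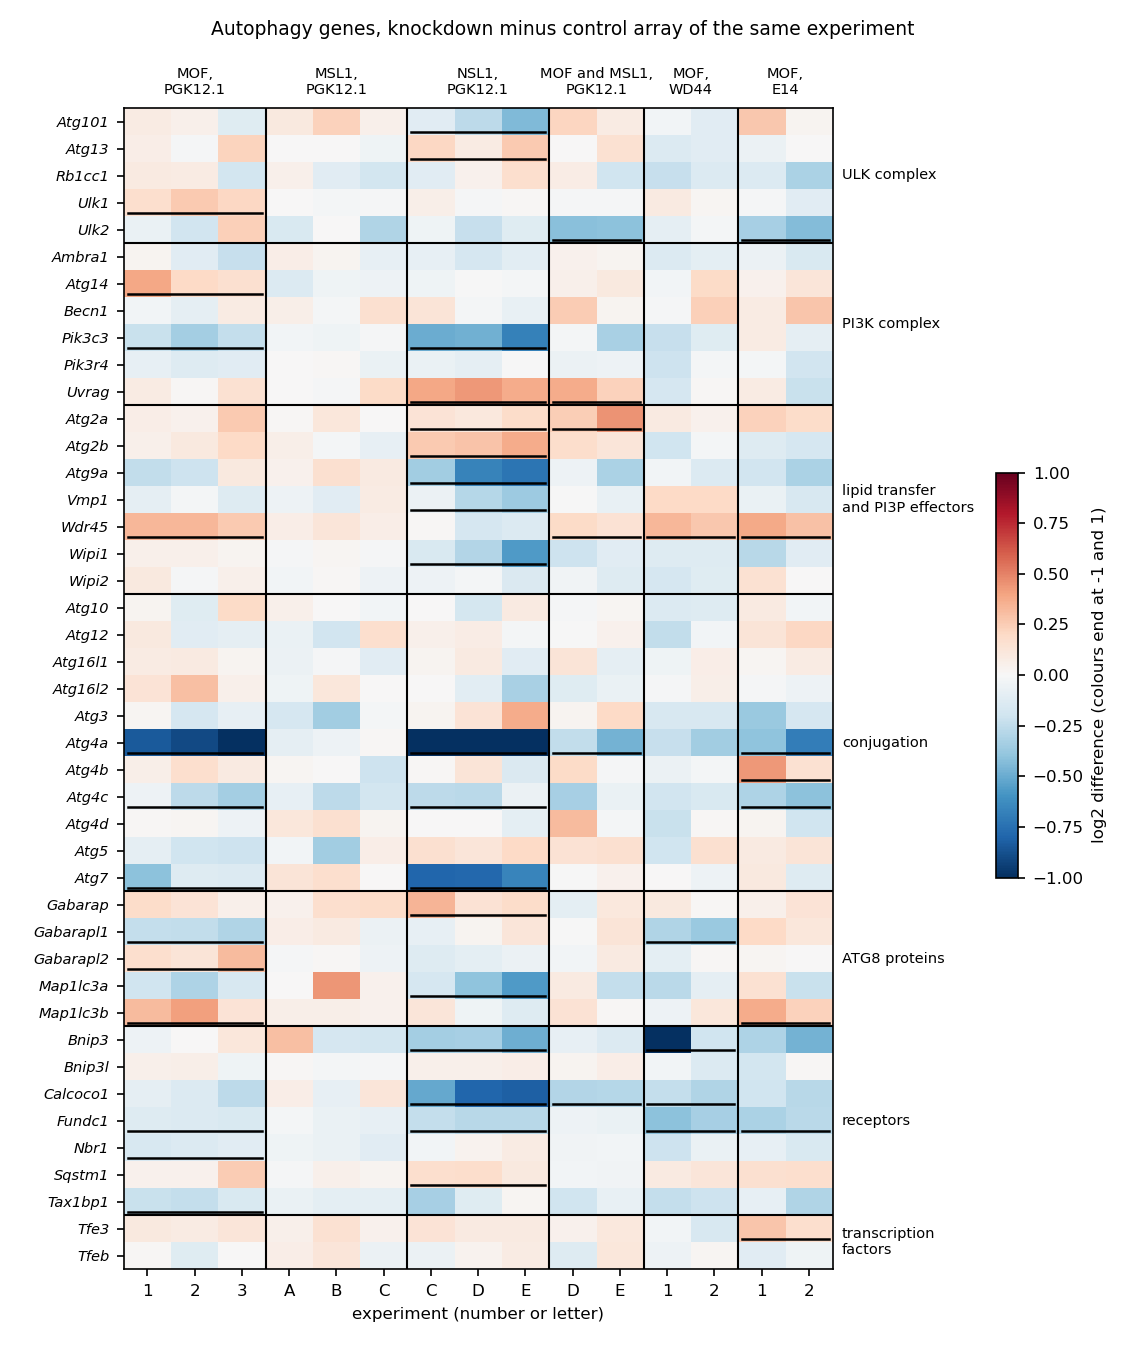
Difference in log2 expression between each knockdown array and the control array of its experiment (colour, ending at -1 and 1) for 43 autophagy genes (rows, by role) and 15 pairs of arrays (columns, by comparison). A black line under a gene's cells marks a change called in limma at an adjusted p under 0.05. The row of Atg4a is blue in the MOF, NSL1 and combined knockdowns, and that of Wdr45 is red in the MOF and combined knockdowns.

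Of the 5 genes of the ULK complex analysed, 4 were called in at least 1 comparison, as were 57.2% of all genes. Ulk1, the kinase that starts autophagosome formation, was above its own control in MOF arrays 1, 2 and 3 of PGK12.1, by 0.17, 0.26 and 0.21. Ulk1 rose there by 0.21 ± 0.043 (SE, n = 3 experiments, limma adjusted p = 0.00261). In the other comparisons its fitted change lay between -0.06 and 0.06. The call was lost without the block (adjusted p = 0.0677) and with only the arrays of experiments 1, 2 and 3.

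Ulk2, the paralogous kinase, was dim, with values of 6.02 to 7.89 over all arrays. It stood at 6.02 and 6.04 in the combined knockdown (D, E), against 6.44 and 6.46 in control arrays. MOF arrays of E14 held 6.5 and 6.43, against 6.83 and 6.86 in their controls. In both comparisons the groups did not overlap. Ulk2 fell by 0.38 ± 0.089 (SE, n = 2, adjusted p = 0.0214) in the combined knockdown and by 0.38 ± 0.093 (SE, n = 2, adjusted p = 0.0231) in E14. In PGK12.1 the 3 MOF experiments differed in sign for Ulk2, at -0.07, -0.19 and 0.24. The E14 call for Ulk2 was lost without either experiment (changes of -0.43 and -0.33, adjusted p of 0.191 and 0.228), and that of the combined knockdown without either MOF and MSL1 array or either control array (-0.40 to -0.32, adjusted p of 0.087 to 0.191).

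Atg13 and Atg101, the regulatory subunits that bind each other within the ULK complex, moved in opposite directions in the NSL1 arrays. Atg13 rose by 0.19 ± 0.050 (SE, n = 3, adjusted p = 0.00626) and Atg101 fell by 0.25 ± 0.067 (SE, n = 3, adjusted p = 0.00847). For Atg101 experiments C, D and E gave -0.11, -0.26 and -0.44, and the call was lost without the NSL1 array of experiment E (-0.18, adjusted p = 0.0823) or its control (-0.17, adjusted p = 0.0867). That of Atg13 was lost without control E (0.16, adjusted p = 0.0505). Rb1cc1, the scaffold FIP200, was not called anywhere, with fitted changes of -0.23 to 0.04.

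The catalytic subunit of the class III PI3-kinase, Pik3c3 (VPS34), fell in 2 comparisons. It stood at 8.08, 8.14 and 8.12 in NSL1 arrays C, D and E, against 8.58, 8.62 and 8.80 in their controls. In MOF arrays 1, 2 and 3 of PGK12.1 it stood at 8.78, 8.69 and 9.23, against 9.0, 9.03 and 9.47 in controls. Every knockdown array was below its own control in both comparisons, and in the NSL1 comparison the groups did not overlap. Pik3c3 fell by 0.55 ± 0.056 (SE, n = 3, adjusted p = 2.08e-06) in the NSL1 arrays, to 68.1% of control, and by 0.27 ± 0.058 (SE, n = 3, adjusted p = 0.00391) with MOF siRNA. Both calls held in every alternative fit and with any 1 array left out.

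Uvrag, a subunit of the PI3-kinase complex that acts on endosomes and on maturing autophagosomes, rose in the NSL1 arrays and in the combined knockdown. Its values were 9.27, 9.40 and 9.34 in NSL1 arrays C, D and E, against 8.88, 8.96 and 8.97 in their controls. In the combined knockdown it stood at 9.33 and 9.2, against 8.96 and 8.97 in controls. The groups did not overlap in either comparison. Uvrag rose by 0.37 ± 0.061 (SE, n = 3, adjusted p = 0.000172) in the NSL1 arrays and by 0.28 ± 0.074 (SE, n = 2, adjusted p = 0.0325) in the combined knockdown. The second call was lost when any of the 4 combined or control arrays of experiments D and E was left out (0.23 to 0.34, adjusted p of 0.0806 to 0.319) and in 4 of 7 alternative fits.

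Atg14, which directs the same kinase to the autophagosome, rose by 0.25 ± 0.055 (SE, n = 3, adjusted p = 0.00436) with MOF siRNA in PGK12.1. Its 3 experiments gave 0.39, 0.20 and 0.16, and without experiment 1 the change was 0.18 (adjusted p = 0.0502). The remaining 3 members of this complex were not called in any comparison, while 57.2% of all genes were called in at least 1. Becn1 (Beclin 1) had changes of -0.01 to 0.18, Pik3r4 (VPS15) of -0.12 to -0.02, and Ambra1, a Beclin 1 regulator, of -0.12 to 0.05.

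Of the 7 genes for lipid transfer and PI3P binding, 5 were called in the NSL1 arrays, 2 higher (18.8% of all genes) and 3 lower (22.4% of all genes). Atg9a, a scramblase carried on vesicles that seed the membrane, stood at 7.74, 7.17 and 7.26 in NSL1 arrays C, D and E, against 8.09, 7.83 and 8.00 in controls. All 3 NSL1 arrays were below all 3 controls. Atg9a fell by 0.57 ± 0.078 (SE, n = 3, adjusted p = 3.85e-05), to 67.5% of control, and its change lay between -0.26 and 0.05 in the other comparisons, with no call. Vmp1, an endoplasmic reticulum scramblase, fell by 0.25 ± 0.053 (SE, n = 3, adjusted p = 0.00161), and Wipi1, which binds PI3P, fell by 0.32 ± 0.067 (SE, n = 3, adjusted p = 0.00122). In experiments C, D and E the difference was -0.06, -0.29 and -0.37 for Vmp1 and -0.15, -0.29 and -0.57 for Wipi1. Without the NSL1 array of experiment E the change of Wipi1 was -0.21, still called.

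The bridge proteins that carry lipid from the endoplasmic reticulum are encoded by Atg2a and Atg2b. Atg2a stood at 9.38 and 9.66 in the combined knockdown, against 9.13 and 9.21 in controls D and E, and at 9.37, 9.24 and 9.40 in NSL1 arrays, against 9.23, 9.13 and 9.21 in controls. In both the groups did not overlap. Atg2a rose by 0.35 ± 0.063 (SE, n = 2, adjusted p = 0.00546) in the combined knockdown and by 0.15 ± 0.052 (SE, n = 3, adjusted p = 0.0306) in the NSL1 arrays. Leaving out the combined knockdown array of experiment E gave 0.27 for Atg2a (adjusted p = 0.126), and the NSL1 call was lost in 4 of 7 alternative fits and in 5 of 9 fits with 1 array left out. Atg2b rose by 0.32 ± 0.050 (SE, n = 3, adjusted p = 0.000119) in the NSL1 arrays through its brighter probeset, while its second probeset had a change of 0.05 (adjusted p = 0.489).

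Wdr45 encodes WIPI4, which binds PI3P and ATG2, and was the member called higher in the most comparisons. It stood at 10.10, 10.14 and 11.09 in MOF arrays of PGK12.1, against 9.77, 9.81 and 10.83 in controls. In WD44 its values were 11.46 and 11.37 with MOF siRNA, against 11.13 and 11.10 in controls, and in E14 10.12 and 10.23 with MOF siRNA, against 9.74 and 9.94 in controls. The combined knockdown held 11.49 and 11.43, against 11.30 and 11.29 in controls. All 9 arrays with MOF siRNA were above the control of their experiment.

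Wdr45 rose by 0.31 ± 0.048 in PGK12.1 (SE, n = 3, adjusted p = 0.000432), by 0.30 ± 0.059 in WD44 (SE, n = 2, adjusted p = 0.00711), by 0.34 ± 0.059 in E14 (SE, n = 2, adjusted p = 0.00449) and by 0.20 ± 0.056 in the combined knockdown (SE, n = 2, adjusted p = 0.0474). Between lines, the difference of its MOF change was 0.01 for PGK12.1 minus WD44 (95% interval -0.16 to 0.17) and -0.03 for PGK12.1 minus E14 (-0.19 to 0.13), neither called. In the NSL1 arrays Wdr45 had differences of 0.01, -0.16 and -0.13. The call of the combined knockdown was lost with any of its 6 leave-outs (0.17 to 0.23), and those of WD44 and E14 without experiment 1 (0.27, adjusted p = 0.151, and 0.29, adjusted p = 0.149). Wipi2, another PI3P binder, was not called in any comparison (-0.15 to 0.08).

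Conjugation of ATG8 proteins involves 11 of the members analysed. Of these, Atg4a, Atg4b, Atg4c and Atg7 were called in at least 1 comparison, beside 57.2% of all genes. Atg4a encodes a cysteine protease that trims ATG8 proteins before their lipidation and releases them from membranes. In NSL1 arrays C, D and E it stood at 7.44, 7.12 and 7.32, against 8.62, 8.52 and 8.49 in controls. MOF arrays 1, 2 and 3 of PGK12.1 held 7.67, 7.66 and 7.64, against 8.51, 8.56 and 8.73 in controls. In both comparisons every knockdown array lay below every control.

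In the combined knockdown Atg4a stood at 8.28 and 8.02, against 8.52 and 8.49 in controls. MOF arrays of WD44 held 7.99 and 7.92, against 8.22 and 8.27 in controls, and MOF arrays of E14 held 7.70 and 7.68, against 8.10 and 8.37 in controls. MSL1 arrays A, B and C held 8.67, 8.65 and 8.63, against 8.76, 8.70 and 8.62 in controls. The groups overlapped only with MSL1 siRNA.

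Atg4a fell by 1.26 ± 0.074 (SE, n = 3, adjusted p = 2.52e-08) in the NSL1 arrays, to 41.9% of control, and by 0.94 ± 0.076 (SE, n = 3, adjusted p = 3.36e-06) with MOF siRNA in PGK12.1, to 52.0%. Counted from the lowest, its change ranked 10 and 5 of 13989 genes. It fell by 0.55 ± 0.094 (SE, n = 2, adjusted p = 0.00392) in E14, where it ranked 26, and by 0.34 ± 0.089 (SE, n = 2, adjusted p = 0.0327) in the combined knockdown. In WD44 its change of -0.29 ± 0.094 was not called (adjusted p = 0.0553), and with MSL1 siRNA it was -0.05 ± 0.074 (95% interval -0.21 to 0.10). The second Atg4a probeset gave changes of -1.12, -0.82, -0.44 and -0.34 where the first was called, and -0.28 in WD44, called there (adjusted p = 0.0135). The annotation assigns both probesets to Atg4a, which lies on the X chromosome. In probeset number order, the 3 named neighbours on each side of the brighter one are genes of chromosome 3, where RefSeq places a pseudogene, Atg4a-ps, while those of the second are X-linked. Whether the brighter probeset reads Atg4a, Atg4a-ps or both was not tested.

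The second probeset stood at 7.46, 6.98 and 7.13 in NSL1 arrays C, D and E, against 8.55, 8.18 and 8.17 in controls. With MOF siRNA in PGK12.1 it stood at 7.59, 7.54 and 7.59, against 8.35, 8.37 and 8.46 in controls. The groups did not overlap in either comparison.

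The calls for Atg4a in the NSL1 arrays and with MOF siRNA in PGK12.1 held in every alternative fit and with any 1 array left out, over ranges of -1.35 to -1.15 and -1.01 to -0.87. That of E14 was lost without experiment 2 (-0.40, adjusted p = 0.12). That of the combined knockdown was lost without its array of experiment E (-0.18, adjusted p = 0.48) or either control (adjusted p of 0.161 and 0.115).

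**Figure D2:**
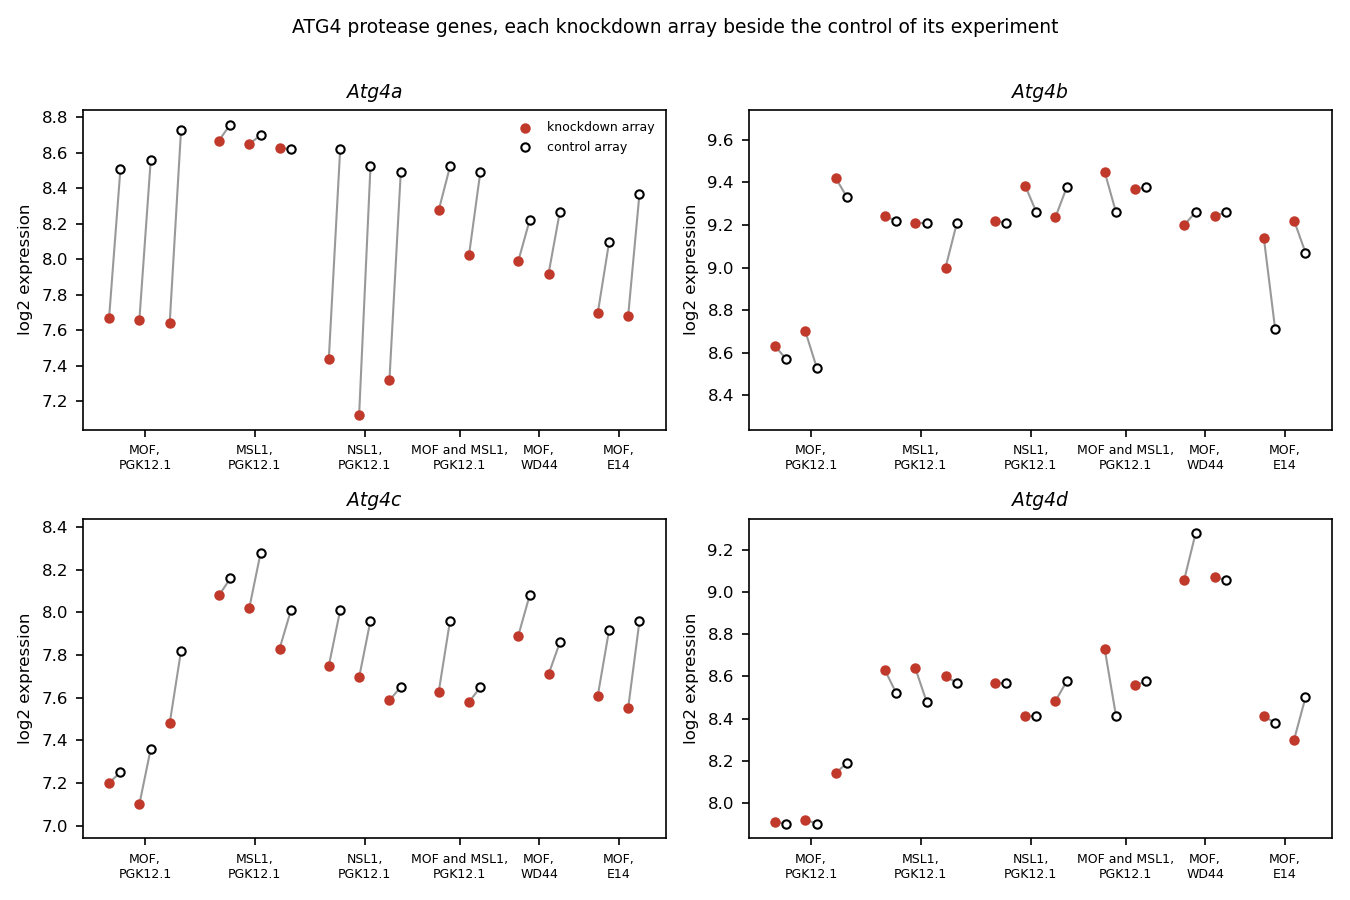
Log2 expression (vertical axis) of the 4 ATG4 protease genes in each knockdown array (filled red) joined to the control array of its experiment (open black), by comparison (horizontal axis). Atg4a is near 7.7 in MOF arrays of PGK12.1 and 7.1 to 7.4 in NSL1 arrays, below controls at 8.5 to 8.7, and Atg4c lies below its control in all 15 pairs.

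The other ATG4 genes moved less. Atg4c stood below the control of its experiment in all 15 pairs, by 0.05 to 0.41. Its values were 7.20, 7.10 and 7.48 in MOF arrays of PGK12.1, against 7.25, 7.36 and 7.82 in controls, and 7.61 and 7.55 in MOF arrays of E14, against 7.92 and 7.96 in controls. NSL1 arrays held 7.75, 7.70 and 7.59, against 8.01, 7.96 and 7.65 in controls. The groups overlapped in PGK12.1, in both comparisons, and did not in E14.

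Atg4c fell by 0.36 ± 0.078 in E14 (SE, n = 2, adjusted p = 0.0125), by 0.22 ± 0.063 with MOF siRNA in PGK12.1 (SE, n = 3, adjusted p = 0.0223) and by 0.20 ± 0.061 in the NSL1 arrays (SE, n = 3, adjusted p = 0.0173). The 2 MOF calls were lost without the block (adjusted p = 0.307 in each), and all 3 with some array left out: in E14 without either experiment (adjusted p of 0.127 and 0.169), with MOF siRNA in PGK12.1 without experiment 2 or 3 (0.119 and 0.185), and in the NSL1 arrays without NSL1 array C or D or control D (0.0645 to 0.12). Atg4b rose by 0.29 ± 0.080 in E14 alone (SE, n = 2, adjusted p = 0.0377), with differences of 0.43 and 0.15, and was called in none of the 4 fits with an array left out. Atg4d was not called (-0.11 to 0.17).

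Atg7, the E1-like enzyme that activates ATG12 and the ATG8 proteins, fell most in the NSL1 arrays. It stood at 8.04, 7.97 and 7.99 in NSL1 arrays C, D and E, against 8.83, 8.75 and 8.64 in controls, with no overlap. MOF arrays of PGK12.1 held 7.54, 7.73 and 8.22, against 7.95, 7.86 and 8.36 in controls, and overlapped them. Atg7 fell by 0.73 ± 0.060 (SE, n = 3, adjusted p = 3.11e-07) in the NSL1 arrays, to 60.3% of control, and by 0.23 ± 0.062 (SE, n = 3, adjusted p = 0.0155) with MOF siRNA. The first call held throughout, and the second was lost without experiment 1 (-0.135, adjusted p = 0.16). In the remaining comparisons its change lay between -0.03 and 0.10.

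The remaining 7 conjugation genes were called in no comparison. Atg3, the E2-like enzyme for ATG8 proteins, ranged from -0.27 to 0.14, and Atg10, the E2-like enzyme for ATG12, from -0.14 to 0.03. Atg12 and Atg5, which are joined to each other and bind ATG16L1, ranged from -0.14 to 0.17 and from -0.17 to 0.14. Atg16l1 stayed between -0.07 and 0.07 and Atg16l2 between -0.13 and 0.16.

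RefSeq promoter windows were at hand for 36 of the 43 members, not for Atg12, Atg16l1, Becn1, Bnip3l, Map1lc3a, Pik3c3 or Rb1cc1. The 250 bases before a start site are shown for the 4 members with a window that fell most in the NSL1 arrays, and for Wdr45, the member called higher in the most comparisons. Capitals mark a match, on either strand, to CACGTG, the E-box bound by TFEB and TFE3, or to CCGGAA, the core bound by ETS factors, which reads TTCCGG on the other strand. The windows are from GRCm38.p6, written 5′ to 3′ along the gene: chrX:140956657-140956906 on the plus strand for the downstream of 2 Atg4a start sites (the window of the other holds none of the motifs searched), chr6:114670846-114671095 on the plus strand for Atg7, chr15:102722179-102722428 on the minus strand for Calcoco1, chr1:75192011-75192260 on the minus strand for Atg9a and chrX:7722677-7722926 on the plus strand for Wdr45.
Atg4a: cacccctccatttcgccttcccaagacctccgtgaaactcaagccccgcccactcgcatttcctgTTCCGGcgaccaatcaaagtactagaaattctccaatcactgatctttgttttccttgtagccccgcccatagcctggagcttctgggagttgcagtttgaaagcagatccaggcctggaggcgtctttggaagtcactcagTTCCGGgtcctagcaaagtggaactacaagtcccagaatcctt
Atg7: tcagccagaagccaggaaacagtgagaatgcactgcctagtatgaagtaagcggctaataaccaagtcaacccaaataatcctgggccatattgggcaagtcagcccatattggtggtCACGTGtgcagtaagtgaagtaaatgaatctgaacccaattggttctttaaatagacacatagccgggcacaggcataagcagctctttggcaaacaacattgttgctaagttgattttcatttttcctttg
Calcoco1: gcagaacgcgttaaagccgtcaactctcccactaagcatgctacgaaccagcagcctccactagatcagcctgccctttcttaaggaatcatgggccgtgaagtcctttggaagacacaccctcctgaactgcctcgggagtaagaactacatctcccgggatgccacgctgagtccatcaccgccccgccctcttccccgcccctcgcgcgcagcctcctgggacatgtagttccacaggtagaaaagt
Atg9a: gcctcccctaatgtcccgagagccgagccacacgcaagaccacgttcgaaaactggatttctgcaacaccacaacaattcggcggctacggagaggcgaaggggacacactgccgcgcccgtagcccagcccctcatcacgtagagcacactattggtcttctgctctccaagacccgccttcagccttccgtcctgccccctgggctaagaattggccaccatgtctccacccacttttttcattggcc
Wdr45: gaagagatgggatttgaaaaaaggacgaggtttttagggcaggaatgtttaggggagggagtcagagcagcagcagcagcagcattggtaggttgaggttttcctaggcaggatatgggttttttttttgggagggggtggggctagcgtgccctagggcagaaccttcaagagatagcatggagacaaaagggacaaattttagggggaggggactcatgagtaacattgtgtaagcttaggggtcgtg

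The E-box was present in 4 of the 36 members' windows (Atg3, Atg5, Atg7 and Bnip3), or 11.1%, against 9.72% of 11064 genes with a window. The ETS core was present in 8 of 36 (Atg101, Atg2b, Atg3, Atg4a, Fundc1, Gabarapl2, Vmp1 and Wipi2), or 22.2%, against 22.9% of genes. The CLEAR element, which is the E-box with GT before it and AC after it, was in none of the members' windows and in 0.542% of genes. The NRF1 site, GCGC then AT then GCGC, was also in none, against 1.69% of genes, and the CRE TGACGTCA was in that of Atg16l2, against 2.88% of genes. Atg4a had 2 ETS cores, at -185 and -43 from its start site, Atg7 an E-box at -132, and Calcoco1, Atg9a and Wdr45 neither. The median window held 16.5 CpG among members and 16 among genes with a window.

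The 5 genes of ATG8 proteins, which coat the membrane and bind receptors, split by comparison. Gabarapl1 stood at 6.61, 6.68 and 7.24 in MOF arrays of PGK12.1, against 6.85, 6.93 and 7.54 in controls. In WD44 it stood at 10.41 and 10.25 with MOF siRNA, against 10.71 and 10.62 in controls, and in E14 at 9.36 and 9.46 with MOF siRNA, against 9.16 and 9.35 in controls. All MOF arrays were below their controls in PGK12.1 and WD44, and both were above in E14.

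Gabarapl1 fell by 0.26 ± 0.049 in PGK12.1 (SE, n = 3, adjusted p = 0.00146) and by 0.34 ± 0.060 in WD44 (SE, n = 2, adjusted p = 0.00463), and its change in E14 was 0.15 ± 0.060 (n = 2, adjusted p = 0.128). Both calls were lost without the block (adjusted p of 0.545 and 0.629), and that of WD44 without either experiment (-0.37 and -0.30, adjusted p of 0.0612 and 0.0622).

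Map1lc3b, the LC3 gene whose product is the usual marker of autophagosomes, rose by 0.29 ± 0.062 with MOF siRNA in PGK12.1 (SE, n = 3, adjusted p = 0.0036) and by 0.30 ± 0.076 in E14 (SE, n = 2, adjusted p = 0.026). Its differences were 0.32, 0.41 and 0.14 in PGK12.1 and 0.37 and 0.23 in E14, against -0.05 and 0.11 in WD44, where it was not called. Both calls were lost without the block (adjusted p of 0.0816 and 0.328), that of PGK12.1 also without experiment 2 (0.23, adjusted p = 0.0501), and that of E14 without either experiment (0.23 and 0.37). Gabarapl2 rose by 0.21 ± 0.048 with MOF siRNA in PGK12.1 (SE, n = 3, adjusted p = 0.00627), lost without experiment 3 (0.15, adjusted p = 0.0771) and without the block. A second, dimmer Gabarapl2 probeset rose there by 0.31 (adjusted p = 0.0124), with differences of 0.31, 0.32 and 0.30. It was not called without the block (adjusted p = 0.254).

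Map1lc3a and Gabarap were called in the NSL1 arrays, in opposite directions. Map1lc3a stood at 8.25, 7.84 and 7.87 in NSL1 arrays C, D and E, against 8.42, 8.24 and 8.44 in controls. The highest NSL1 array was just above the lowest control. Map1lc3a fell by 0.34 ± 0.096 (SE, n = 3, adjusted p = 0.00949), and Gabarap rose by 0.22 ± 0.054 (SE, n = 3, adjusted p = 0.004). The first call was lost without NSL1 array D or E or control E (-0.29 to -0.23, adjusted p of 0.0624 to 0.0974), and the second without NSL1 array C (0.16, adjusted p = 0.0617).

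Among 7 receptor genes, Calcoco1, Fundc1 and Bnip3 held the larger changes, all lower. Calcoco1, a receptor for selective turnover of the endoplasmic reticulum, stood at 8.83, 8.49 and 8.57 in NSL1 arrays, against 9.34, 9.28 and 9.38 in controls. The combined knockdown held 8.99 and 9.09, against 9.28 and 9.38 in controls, and MOF arrays of WD44 held 10.87 and 10.83, against 11.11 and 11.13 in controls. In none of these did the groups overlap.

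Calcoco1 fell by 0.71 ± 0.057 (SE, n = 3, adjusted p = 2.94e-07) in the NSL1 arrays, to 61.2% of control, by 0.27 ± 0.073 in WD44 (SE, n = 2, adjusted p = 0.0281) and by 0.24 ± 0.069 in the combined knockdown (SE, n = 2, adjusted p = 0.0493). With MOF siRNA it had changes of -0.16 in PGK12.1 and -0.24 in E14, not called. The call in the NSL1 arrays held throughout, that of WD44 was lost without either experiment (adjusted p of 0.194 and 0.181), and that of the combined knockdown in 5 of 6 fits with 1 array left out (-0.25 to -0.20, adjusted p of 0.0559 to 0.296).

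Fundc1, a receptor on the outer membrane of mitochondria, had small differences with little spread. It stood at 10.15, 10.08 and 10.06 in NSL1 arrays, against 10.39, 10.35 and 10.34 in controls. In WD44 it stood at 9.95 and 10.07 with MOF siRNA, against 10.36 and 10.40 in controls, and in E14 at 9.76 and 9.73 with MOF siRNA, against 10.08 and 10 in controls. MOF arrays of PGK12.1 held 8.85, 8.87 and 10.12, against 8.98, 9.01 and 10.27 in controls. All 15 knockdown arrays of the series were below their control for Fundc1.

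Fundc1 fell by 0.37 ± 0.051 in WD44 (SE, n = 2, adjusted p = 0.00101), by 0.30 ± 0.051 in E14 (SE, n = 2, adjusted p = 0.00394), by 0.26 ± 0.040 in the NSL1 arrays (SE, n = 3, adjusted p = 0.000112) and by 0.14 ± 0.041 with MOF siRNA in PGK12.1 (SE, n = 3, adjusted p = 0.0237). The E14 call was lost without experiment 1 (-0.27, adjusted p = 0.126). The PGK12.1 call was lost with any of its 6 arrays left out (-0.145 to -0.135, adjusted p of 0.0618 to 0.0915) and without the block (adjusted p = 0.0618).

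Bnip3, a mitochondrial receptor induced by hypoxia, fell in WD44 through 1 experiment. It stood at 9.99 and 10.24 in MOF arrays 1 and 2, against 11.21 and 10.44 in controls, which are differences of -1.22 and -0.20. The groups did not overlap, and control 1 was the highest array of the series for Bnip3, in the line with the highest array medians (7.89 to 7.96). It fell by 0.71 ± 0.163 (SE, n = 2, adjusted p = 0.014) and ranked 17 from the lowest of 13989 genes. Without either array of experiment 1 the change was -0.20 (adjusted p = 0.563).

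In NSL1 arrays C, D and E Bnip3 stood at 10.26, 9.88 and 9.68, against 10.60, 10.21 and 10.17 in controls, and fell by 0.35 ± 0.129 (SE, n = 3, adjusted p = 0.039). Each NSL1 array was below its control, though the groups overlapped. That call was lost in 3 of 7 alternative fits and in 6 of 9 fits with 1 array left out (-0.41 to -0.30). In E14 its change was -0.39 ± 0.163, not called (adjusted p = 0.158). A second Bnip3 probeset was called in the NSL1 arrays (-0.35, adjusted p = 0.0391) and in WD44 (-0.745, adjusted p = 0.0104). Its WD44 differences were -1.21 and -0.28. In E14 that probeset had a change of -0.20 (adjusted p = 0.496), not called. Which locus the brighter Bnip3 probeset reads was not tested.

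Of the remaining receptors, Sqstm1 (p62), which links ubiquitin to LC3, rose by 0.15 ± 0.047 in the NSL1 arrays (SE, n = 3, adjusted p = 0.0207). Nbr1 fell by 0.14 ± 0.045 (SE, n = 3, adjusted p = 0.0379) and Tax1bp1 by 0.20 ± 0.061 (SE, n = 3, adjusted p = 0.0256) with MOF siRNA in PGK12.1. Both are ubiquitin-binding receptors, and both calls were lost with any of the 6 arrays left out (adjusted p of 0.0824 to 0.128 and of 0.0551 to 0.126). The call of Sqstm1 was lost without NSL1 array or control C or D (0.13 to 0.14, adjusted p of 0.0521 to 0.0977). Bnip3l (NIX), a mitochondrial receptor, was not called (-0.09 to 0.06), and RefSeq lists pseudogenes of Bnip3l and Gabarapl2 whose probes could be shared.

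**Figure D3:**
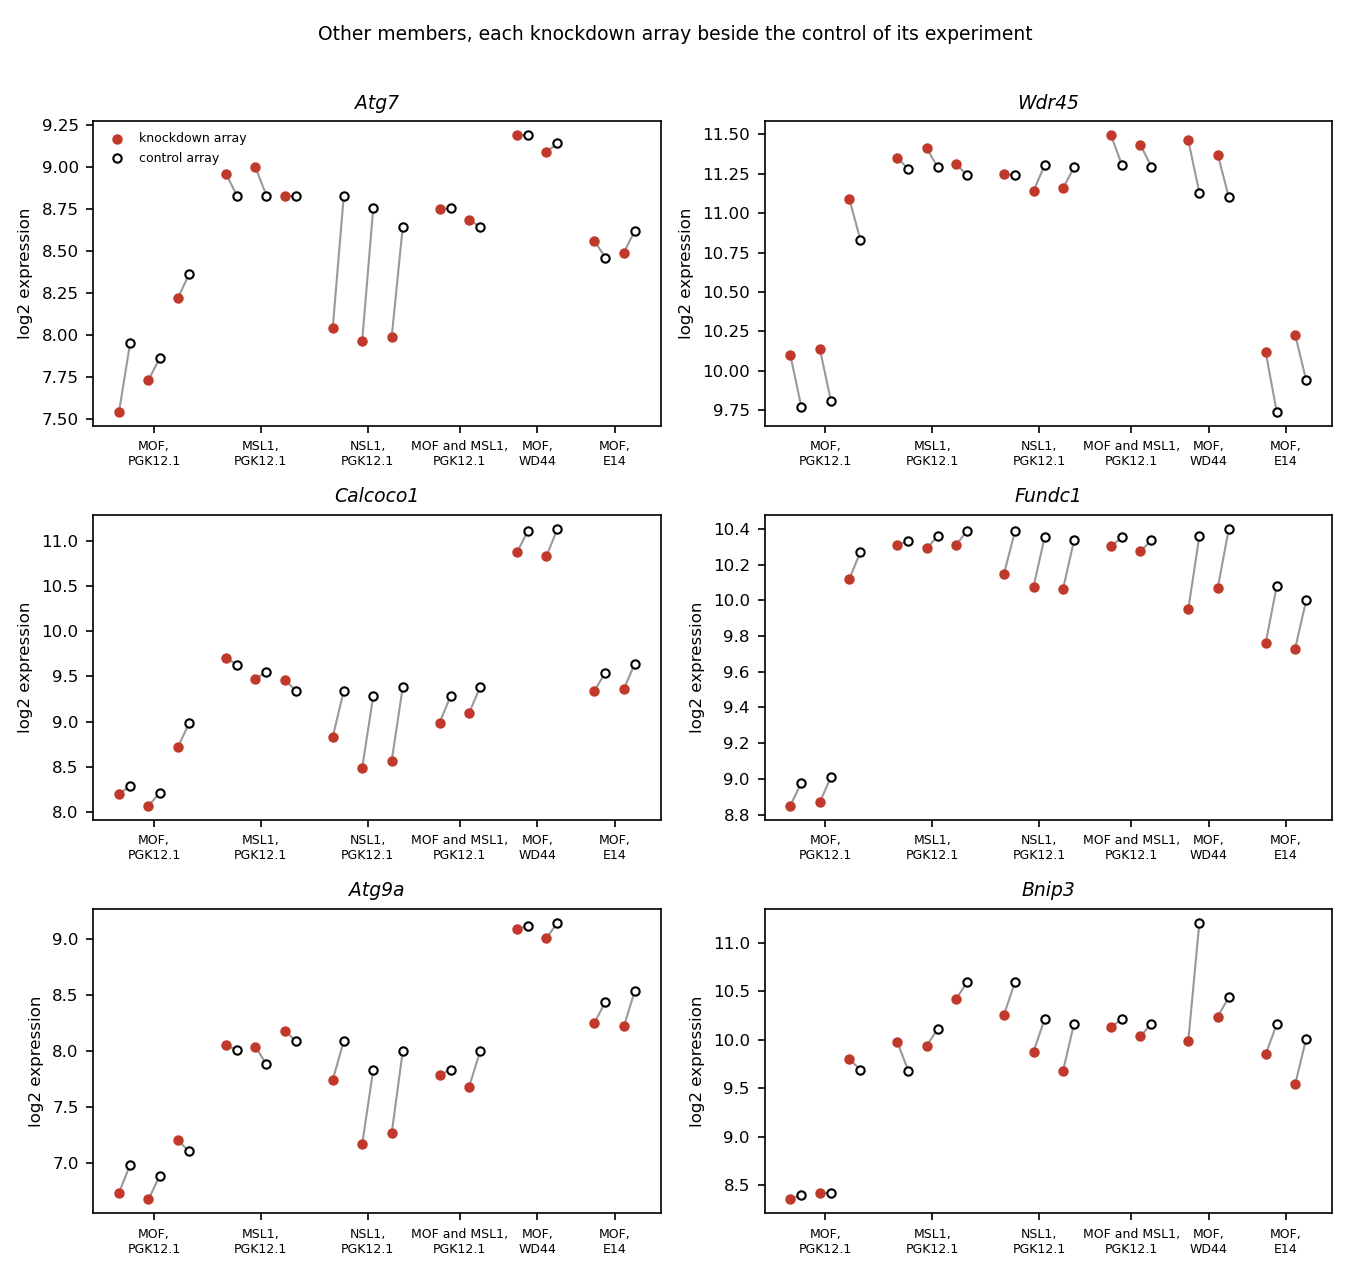
Log2 expression (vertical axes, each with its own range) of Atg7, Wdr45, Calcoco1, Fundc1, Atg9a and Bnip3 in each knockdown array (filled red) joined to the control of its experiment (open black), by comparison. Wdr45 lies above its control in all 9 pairs with MOF siRNA, Fundc1 lies below its control in all 15 pairs, and the fall of Bnip3 in WD44 rests on the pair with control 11.21.

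The transcription factors TFEB and TFE3 activate lysosomal and autophagy genes when they enter the nucleus, which mRNA levels do not show. Tfeb was not called (-0.08 to 0.05). Tfe3 rose by 0.23 ± 0.057 in E14 (SE, n = 2, adjusted p = 0.027), and the call was lost without either experiment (0.17, adjusted p = 0.406, and 0.28, adjusted p = 0.0944).

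In the NSL1 arrays the median absolute change was 0.25 for the 7 lipid transfer and PI3P genes, 0.15 for the 7 receptors and 0.13 for the 11 conjugation genes, beside 0.13 for all genes. The 5 ULK complex genes and 6 PI3-kinase genes were at 0.10 and 0.07. Receptors had a signed median of -0.15 in the NSL1 arrays and, with MOF siRNA, of -0.14 (PGK12.1), -0.23 (WD44) and -0.19 (E14), beside -0.01, 0.00, -0.02 and 0.00 for all genes. In those 4 comparisons 12 other receptor genes tested, outside the members, had medians of -0.08, -0.01, -0.01 and 0.03. Conjugation genes had medians of -0.02, -0.03, -0.11 and -0.02 in the same 4 comparisons. The median of the 7 receptors was -0.05 in the combined knockdown and -0.04 with MSL1 siRNA.

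**Figure D4:**
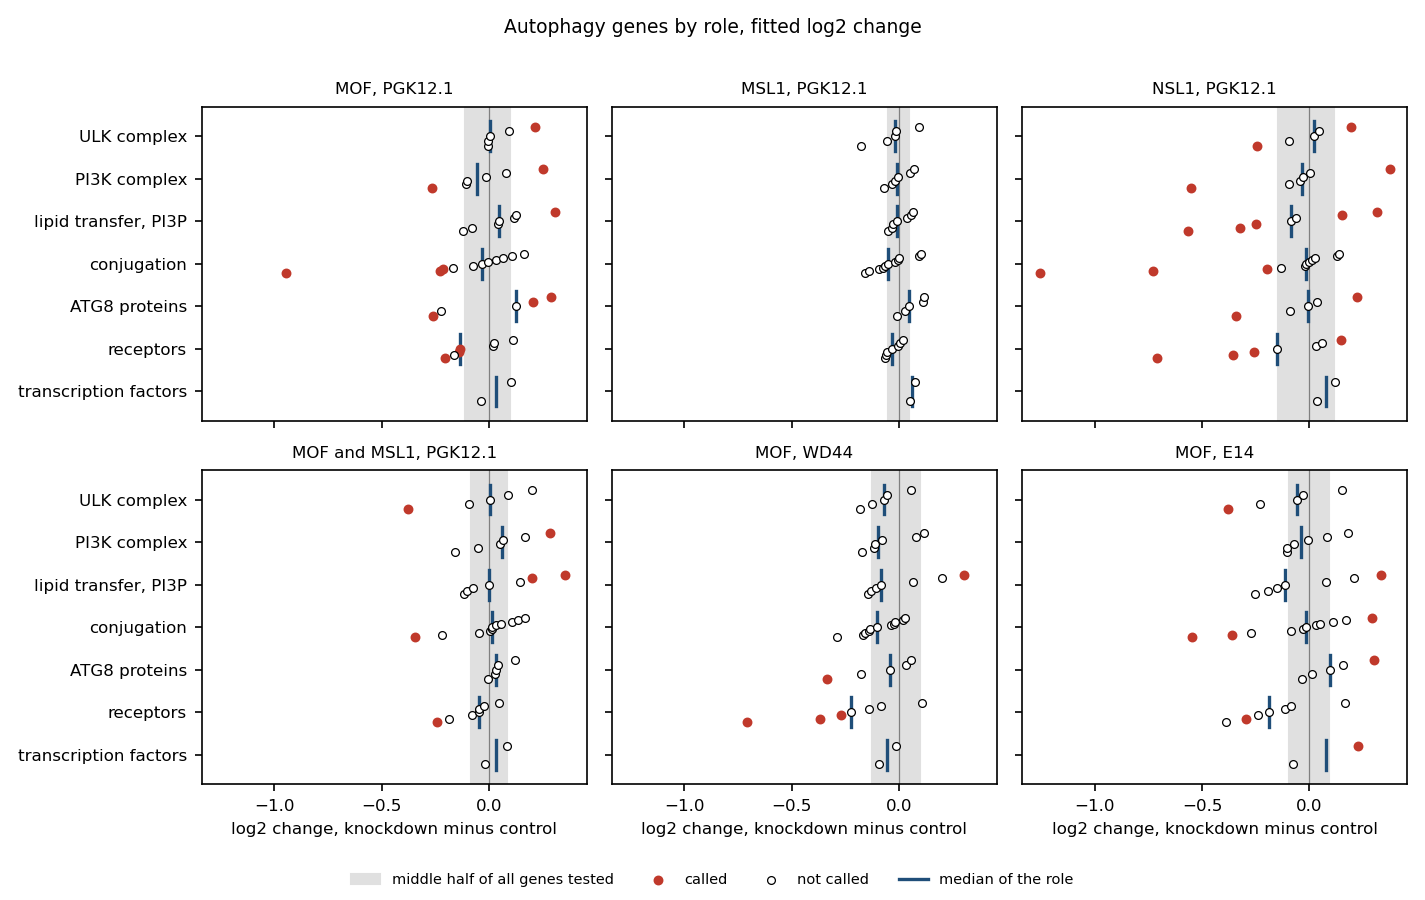
Fitted log2 change (horizontal axis, knockdown minus control) of each autophagy gene by role, in 6 comparisons, filled red where called and open where not, with a blue bar at the median of the role and grey shading between the quartiles of all genes tested. Most genes lie in or near the shading, and the Atg4a point lies far to the left with MOF siRNA in PGK12.1 and in the NSL1 arrays.

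Whether the MOF response differed between lines was tested as a difference of changes. PGK12.1 minus WD44 called 1 member, against 2.24% of all genes, PGK12.1 minus E14 called 2, against 2.58%, and WD44 minus E14 called 1, against 1.47%. Atg4a fell further in PGK12.1 than in WD44, by a difference of -0.65 ± 0.121 (SE, adjusted p = 0.0173). Experiment 3 of PGK12.1, with a single round of siRNA as in WD44, gave -1.09 for Atg4a, and WD44 gave -0.23 and -0.35. Kat8 stood at 42.8% of control with MOF siRNA for PGK12.1 cells, 55.9% for WD44 and 62.6% for E14. Its change in PGK12.1 differed from that in E14 (-0.55, adjusted p = 0.0132) but was not called different from that in WD44 (-0.38, adjusted p = 0.055), and its part in the member differences was not tested. For PGK12.1 minus E14 the Atg4a difference was -0.40 (95% interval -0.66 to -0.14, adjusted p = 0.094), not called. The second Atg4a probeset was called in both, with differences of -0.54 (PGK12.1 minus WD44, adjusted p = 0.00766) and -0.38 (PGK12.1 minus E14, adjusted p = 0.0307).

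Gabarapl1 differed between PGK12.1 and E14 by -0.42 ± 0.078 (SE, adjusted p = 0.0162) and between WD44 and E14 by -0.49 ± 0.085 (SE, adjusted p = 0.0152). Ulk1 differed between PGK12.1 and E14 by 0.27 ± 0.068 (SE, adjusted p = 0.0487). In experiment 3 of PGK12.1 the differences from control were -0.30 for Gabarapl1 and 0.21 for Ulk1. All 4 line differences were lost without the block and when only the arrays of the experiments compared were fitted. Leaving out either experiment of WD44 ended the call for Atg4a (-0.59 and -0.71, adjusted p of 0.117 and 0.0683), leaving out either of E14 that for Gabarapl1 against PGK12.1 (-0.37 and -0.46, adjusted p of 0.205 and 0.0549), and leaving out any array that for Ulk1. The difference of Gabarapl1 between WD44 and E14 was lost in 6 of 8 such fits, those without an array of WD44 or of experiment 1 of E14 (-0.525 to -0.445, adjusted p of 0.0741 to 0.188).

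In WD44, 3 of the 6 fibroblast markers tested rose (Col1a1, Col1a2 and Col3a1, by 0.38, 0.31 and 0.31), and the mean of the 10 markers lay 0.24 to 0.22 below the array median in MOF arrays, against 0.34 to 0.25 below it in controls. Of the 7 primed epiblast and mesoderm markers tested, 4 fell there, among them Lefty2 by 0.75. The WD44 comparison also had 1 ES cell and 1 trophectoderm marker higher, and 1 primitive endoderm marker in each direction. In the NSL1 arrays 2 of 7 primitive endoderm markers rose (Dab2 by 0.45 and Gata6 by 0.37), 2 of 7 trophectoderm markers rose (Eomes by 0.52) and 2 fell, 1 of 7 primed markers rose and 3 fell, 2 of 10 ES cell markers fell, and 1 of 6 fibroblast markers rose and 2 fell. With MOF siRNA in PGK12.1, 3 ES cell markers fell (Utf1 by 0.25), 2 trophectoderm markers rose, and 2 primed markers rose and 2 fell. In E14, 1 ES cell, 1 primed and 1 primitive endoderm marker fell, and in the combined knockdown 1 trophectoderm and 1 primed marker rose. Of all genes tested, 18.8% rose and 22.4% fell in the NSL1 arrays, and 9.84% and 14.6% with MOF siRNA in PGK12.1. In WD44 4.45% rose and 8.28% fell, in E14 3.77% and 4.93%, and in the combined knockdown 3.51% and 3.42%. The marker counts are no test of a change in cell type, and the part of these markers in the members' results was not tested.

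Set against MOF siRNA in PGK12.1, the NSL1 arrays differed for 13 members, 2 higher and 11 lower, against 16.6% of all genes called in either direction, or 30.2% of the members. The differences were -0.54 for Calcoco1 (adjusted p = 0.000943), -0.50 for Atg7 (adjusted p = 0.00185) and -0.39 for Wdr45 (adjusted p = 0.00178), all kept in every alternative and with any 1 array left out. Atg9a (-0.45), Wipi1 (-0.37) and Pik3c3 (-0.29) were also lower and Uvrag (0.29) and Gabarapl1 (0.30) higher. Of 15 fits with 1 array left out, the call was lost in 5 for Atg9a, 4 for Wipi1, 7 for Pik3c3 and 9 for Uvrag, and that of Gabarapl1 was lost only without the block. The difference for Atg4a, -0.31 ± 0.106, was not called (adjusted p = 0.0579, 95% interval -0.54 to -0.09), while that of its second probeset, -0.30, was called (adjusted p = 0.0124). These comparisons came from different experiments with different controls and, in experiments 1 and 2, a different number of siRNA rounds.

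Set against the combined knockdown, the NSL1 arrays differed for 15 members, 4 higher and 11 lower, against 27.6% of all genes, or 34.9% of the members. The differences were negative for Atg4a, at -0.91 ± 0.089 (SE, adjusted p = 1.06e-05), Atg7, at -0.74 ± 0.072 (SE, adjusted p = 9.71e-06), Calcoco1, at -0.47 ± 0.069 (SE, adjusted p = 0.000241), Atg101, at -0.44 ± 0.081 (SE, adjusted p = 0.00106) and Pik3c3, at -0.39 ± 0.067 (SE, adjusted p = 0.000692). These 5 held in every alternative and with any 1 array left out. Ulk2 was higher by 0.28 ± 0.089 (SE, adjusted p = 0.0306), having fallen in the combined knockdown, with values of 6.21 and 6.33 in NSL1 arrays D and E beside 6.02 and 6.04 in the combined knockdown, and this call was lost in 4 of 9 fits with 1 array left out (0.24 to 0.31). The difference for Wdr45 was -0.28 ± 0.056 (SE, adjusted p = 0.00186), and without the combined knockdown array D the difference was -0.25 (adjusted p = 0.0514).

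**Figure D5:**
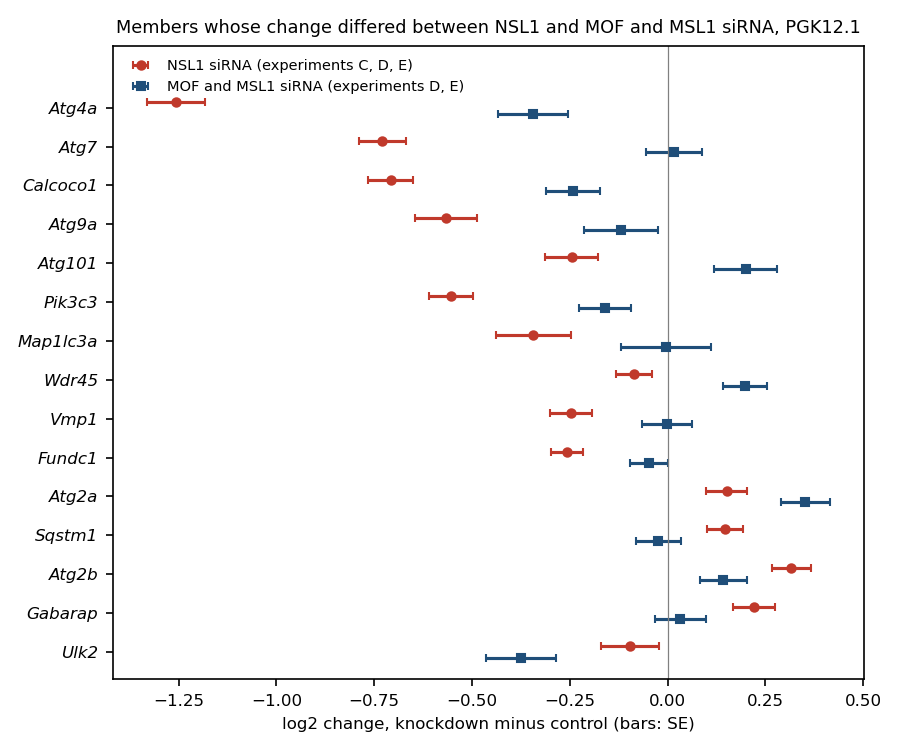
Fitted log2 change against control (horizontal axis, bars are SE) in NSL1 arrays (red circles, 3 experiments) and in the combined MOF and MSL1 knockdown (blue squares, 2 experiments) for the 15 autophagy genes whose changes differed in limma. Atg4a, Atg7, Calcoco1, Atg9a and Pik3c3 lie further left in NSL1 arrays, and Ulk2 lies further left in the combined knockdown.

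Other genes of the pathway, taken from a fixed list of 56 of which 53 were tested, include 14 that act in fusion with the lysosome. In the NSL1 arrays 10 of the 14 fusion genes fell and 1 rose, with a median change of -0.31, beside -0.01 for all genes, of which 22.4% fell and 18.8% rose. Vamp8, a SNARE of the lysosomal membrane, fell by 1.09 ± 0.096 (SE, n = 3, adjusted p = 6.09e-07), and its autophagosomal partners Snap29 and Stx17 fell by 0.45 and 0.42. Plekhm1, an adaptor between LC3 and the HOPS tether, rose by 0.48. With MOF siRNA in PGK12.1, 5 of the 14 fell (14.6% of all genes), among them Snap29 by 0.51 ± 0.057 (SE, n = 3, adjusted p = 3.41e-05) and Stx17 by 0.38, and in the combined knockdown Snap29 fell by 0.33. In WD44, 3 fell (8.28% of all genes), including Stx17 by 0.38, and in E14 1 fell (4.93% of all genes), Epg5 by 0.24.

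Over all 53 genes, 7 rose and 20 fell in the NSL1 arrays, where 18.8% of all genes rose and 22.4% fell. With MOF siRNA in PGK12.1 6 rose and 7 fell, beside 9.84% and 14.6% of all genes. The combined knockdown had 1 higher and 1 lower (3.51% and 3.42% of all genes), WD44 2 higher and 6 lower (4.45% and 8.28%) and E14 2 higher and 5 lower (3.77% and 4.93%). With MSL1 siRNA 0 were called in limma. Foxo3, a transcription factor that activates autophagy genes in muscle, rose by 0.48 with MOF siRNA in PGK12.1, by 0.41 in the NSL1 arrays and by 0.24 in the combined knockdown, and had changes of -0.07 in WD44, 0.06 in E14 and 0.12 with MSL1 siRNA, not called. Mtmr14, a phosphatase that removes PI3P, fell by 0.49 in the NSL1 arrays, 0.39 in WD44 and 0.28 in E14, and Rubcn, an inhibitor of the UVRAG complex, fell by 0.32 in the NSL1 arrays and by 0.28 in E14. Of 13 upstream kinase genes, 3 rose and 2 fell with MOF siRNA in PGK12.1, and 2 rose and 1 fell in the NSL1 arrays. In E14 2 rose and 2 fell, with a highest change of 0.36, and in WD44 0 rose and 2 fell. Among those that fell, Prkaa2, a catalytic subunit of AMPK, fell by 0.34 in both PGK12.1 and WD44 with MOF siRNA. Mtor fell by 0.23 in the NSL1 arrays and 0.27 in E14.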

How the data were processed

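Values were the log2 expression values deposited by the authors, 1 per probeset and array, for 35556 probesets on 27 arrays. Affymetrix Expression Console and RMA made them, per the submitters' processing notes. Versions and the genome build are not given in the sources used here. RMA corrects background, quantile-normalizes and summarizes probes, and the array medians show that sets of experiments were not on 1 scale. Precision depends on the number of arrays, since there is no read depth.

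Names of probesets came from the platform annotation and RefSeq genes of GRCm38.p6. Those with a symbol and a mean log2 value of at least 6 (16283) were fitted with limma 3.58.1 (R 4.3.3). The model had a level for each of the 12 experiments, as a block, and a change for each of the 6 knockdown groups. It was fitted over all 27 arrays (9 residual degrees of freedom), and p-values were adjusted by Benjamini-Hochberg. Members took the brightest single-symbol probeset. The labels give each experiment its own control array, which is why the block was used. As a check of that pairing, deviations from group means correlated at 0.63 to 0.87 for MOF in PGK12.1 and 0.55 to 0.78 for NSL1 with control. They correlated at 0.01 in WD44, 0.13 in E14, -0.05 to 0.36 for MSL1 and -0.10 to 0.26 for the combined knockdown. The MOF and NSL1 groups of PGK12.1 join experiments from sets with different array medians, and a shared set alone could give such correlations. The check therefore cannot show pairing by number or letter, which rests on the labels in every comparison. The procedure was tested on simulated data. Alternatives were no block, median centring, quantile normalization, other filters, array weights, only the arrays compared, any probeset of a gene, and each array left out.

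Values per array are given for members with the 14 largest called changes and those called in at least 3 comparisons, and other pathway genes are named up to 4 per list and comparison. Members and lists were chosen with earlier results of these data known. No protein sequences were used here.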

Additional observations from a re-analysis of the deposited data

Results flagged for a closer look

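Gabarapl1 had a MOF change in PGK12.1 that differed from that in E14 by -0.4183 on the log2 scale, and its change in WD44 differed from that in E14 by -0.4900, each by a limma test of the difference. The same test gave 0.2733 for Ulk1 in PGK12.1 minus E14 and -0.6533 for Atg4a in PGK12.1 minus WD44. Among the 5 control arrays A to E of PGK12.1, 3 of 43 genes had 1 array far from the rest by Dixon's ratio: Pik3r4 was highest in control C (9.57), Atg12 lowest in control C (8.79) and Tax1bp1 lowest in control E (10.318). Chance gives about 1 such gene in 20 if the 5 arrays come from 1 population. That cannot be assumed here, since arrays of experiments A to C had medians of 6.74 to 6.81 and those of D and E of 6.39 to 6.44.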

How the results depend on the processing

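No called change of a member reversed in any alternative. Of 50 called changes, 13 kept their call in every alternative and with any 1 array left out, 33 without the block and 24 with only the arrays of the experiments compared. Calls in WD44, E14 and the combined knockdown rest on 2 experiments each and on the spread shared by all arrays.

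With no replicate block, members called numbered 6 instead of 13 for MOF in PGK12.1, 2 instead of 5 in WD44 and 3 instead of 8 in E14, and the fit left 0 for each of the 3 line differences, 5 instead of 13 for NSL1 minus MOF and 9 instead of 15 for NSL1 minus the combined knockdown. That fit also moved the median of all genes in the combined knockdown to -0.12. It called 2.85% of all genes higher and 5.36% lower for MOF in PGK12.1. In WD44 it called 0.0929% and 0.558% of all genes, and in E14 0.286% and 0.407%. For NSL1 minus MOF it called 1.64% and 2.54%, and for NSL1 minus the combined knockdown 6.13% and 6.6%. For each line difference it called at most 0.0858% of all genes in either direction. Median centring gave 8 in WD44, 1 for PGK12.1 minus E14 and 2 for WD44 minus E14. Quantile normalization gave 3 in the combined knockdown and 2 for PGK12.1 minus WD44. No filter gave 2 in the combined knockdown and 1 for PGK12.1 minus E14, and a filter at 7 gave 8 in WD44 and 2 for WD44 minus E14. Array weights gave 28 in the NSL1 arrays and 10 in the combined knockdown. With only the arrays compared, 4 were called for MOF in PGK12.1, 3 in the combined knockdown and 0 in WD44, in E14 and for each line difference. With 1 array left out, counts were 8 to 8 for MOF in PGK12.1, 0 to 0 for MSL1, 13 to 18 for NSL1, 0 to 5 for the combined knockdown, 1 to 3 in WD44 and 1 to 2 in E14. For the differences they were 0 to 1 for each pair of lines, 6 to 16 for NSL1 minus MOF and 6 to 16 for NSL1 minus the combined knockdown. The share of all genes called was not counted for the other alternatives or with 1 array left out. Those member counts therefore cannot show a shift particular to the members. The causes of these shifts were not tested.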
